A study of Mus musculus with 2 samples.

Results

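The genes described here are 9 transcription factors that set the secretory and endocrine fates of gut epithelium, taken as a named list out of 43346 genes in the tables. They were found by symbol, through the gene identifier without its version, and all 9 were present. Each was measured in 2 total RNA-seq libraries of mouse intestine at embryonic day 14.5, from strain B6NCrl embryos. The labels name no treatment and no engineered allele, describe each sample as a single intestine from 1 pup, and give the sex as pooled. Replicate 2 was collected on day 15 and replicate 1 on day 17 of the same month, so embryo and collection date cannot be told apart. Both libraries form 1 group, and the design holds no contrast between conditions. The values that follow are therefore levels, and differences between 2 replicates of a whole organ.

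In the gut, Notch signalling keeps most epithelial progenitors on the absorptive path. Cells that escape it switch on Atoh1 and enter the secretory lineages, which make goblet, Paneth, tuft and enteroendocrine cells. Spdef and Gfi1 act after Atoh1 in goblet and Paneth cells, while Neurog3 starts the enteroendocrine path and is followed by Neurod1, Insm1, Pax4, Pax6 and Nkx2-2. The endocrine factors are used again in the islets of the pancreas, which grows from the foregut next to the duodenum. In a bulk tissue, fewer cells of a type and less RNA per cell cannot be told apart.

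The gene tables held 32371363 estimated counts in genes for replicate 2 and 32938592 for replicate 1. A count table of this depth resolves genes well below 1 TPM (a transcript level corrected for length and library depth), since 3 counts of any of the 9 factors came to between 0.0424 and 0.104 TPM. All 14 epithelial identity genes, led by Lgals4, Epcam and Krt8, were at TPM 1 or more in both, with Cdx2, the intestinal homeobox gene, at 23.6 TPM in replicate 2 and 18.9 in replicate 1. The libraries stood apart in 2 respects. Xist RNA was at 0.06 TPM in replicate 2 and 77.2 in replicate 1, and the Y-linked gene Ddx3y at 28.2 TPM and 0, although both carry the same sex label. Replicate 2 also held pancreatic transcripts: the sum over 18 exocrine pancreas genes was 1461 TPM in replicate 2 and 32.9 in replicate 1. Over 12 islet genes the sum was 271 TPM in replicate 2, against 33.2 in replicate 1. The islet sum of replicate 1 was almost all Ttr, which liver also makes, at 30.0 TPM. The insulin genes Ins1 and Ins2 had 0 counts in replicate 1, against 428 and 1323 in replicate 2. Because of this, each library is given apart below.

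All 9 factors were at TPM 1 or more in replicate 2, and 5 of them in replicate 1. The 5 detected in both libraries were Neurog3, Spdef, Atoh1, Nkx2-2 and Insm1. Over the whole tables, 34.2% of all genes and 61.3% of protein-coding genes were detected in both. The factors were expressed at low to middle levels for protein-coding genes, between percentiles 37.8 and 66.7 in replicate 2 and between 27.8 and 56.1 in replicate 1. Their TPM summed to 40.8 in replicate 2 and 21.6 in replicate 1. Every factor had more TPM in replicate 2, where 43.6% of 10781 genes with mean TPM between 0.5 and 20 did.

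**Figure D1:**
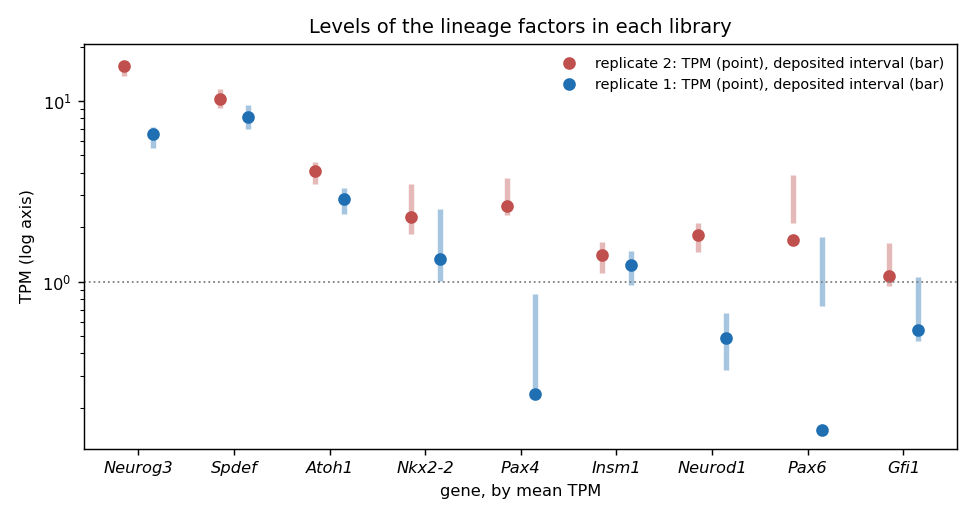
TPM of each factor (log axis) in replicate 2 and replicate 1, with the interval deposited for that TPM as a bar and TPM 1 as a dotted line. Neurog3 and Spdef lead in both libraries, and Pax6 and Pax4 are lowest in replicate 1, at 0.15 and 0.24 TPM, with points at or below the end of their bars.

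The order of levels differed between the libraries. In replicate 2 it was Neurog3, Spdef, Atoh1, Pax4, Nkx2-2, Neurod1, Pax6, Insm1 and Gfi1. In replicate 1 it was Spdef, Neurog3, Atoh1, Nkx2-2, Insm1, Gfi1, Neurod1, Pax4 and Pax6. Neurog3, Spdef and Atoh1 thus held the first 3 places in both. By the mean of the libraries, Neurog3 was at 11.1 ± 6.41 and Spdef at 9.19 ± 1.46 TPM (SD between libraries, n = 2). Within replicate 2 their deposited intervals stood apart, 13.7 to 16.3 TPM for Neurog3 and 9.09 to 11.6 for Spdef. In replicate 1, where Spdef was higher, the intervals of 5.47 to 7.17 for Neurog3 and 6.96 to 9.50 for Spdef overlapped. Atoh1 followed at 3.49 ± 0.856 TPM, and in each library its interval lay below those of Neurog3 and Spdef. The remaining 6 factors had means between 0.81 and 1.81 TPM, and no neighbours among them were further apart than the larger SD between libraries. Within a library, intervals of neighbours could still stand apart, as for Insm1 and Neurod1 in replicate 1, at 0.958 to 1.47 and 0.326 to 0.672 TPM.

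Differences between the libraries were read by a rule of size, since 1 library a side allows no test. A call needed 3 things: a mean TPM of 1 or more, a difference of 1 or more in log2(TPM + 1), and deposited TPM intervals that stood apart. Beside it stands the ratio of estimated counts, replicate 2 over replicate 1, scaled to the counts in genes, with an exact binomial interval of 95% that covers counting error only. By the rule, Neurog3 and Pax4 were called higher in replicate 2, and 0 factors were called lower. Among all 15411 genes at mean TPM 1 or more, 0.603% were called higher and 0.0584% lower. Of the 9 factors, 7 passed the filter on mean TPM, and Pax6 and Gfi1, at means of 0.92 and 0.81 TPM, did not. Pax4 and Neurod1 passed it only through replicate 2, at 2.63 and 1.81 TPM, with 0.24 and 0.49 in replicate 1. The call of Pax4 thus rests on a filter met through the library in which it was higher. The median log2 difference of all 9 factors was 0.49, beside -0.04 for the genes at mean TPM 1 or more. Deposited intervals stood apart for 5 of the 9, Atoh1, Neurog3, Neurod1, Pax4 and Pax6, where 4.64% of genes with mean TPM 0.5 to 20 had intervals apart with replicate 2 higher.

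**Figure D2:**
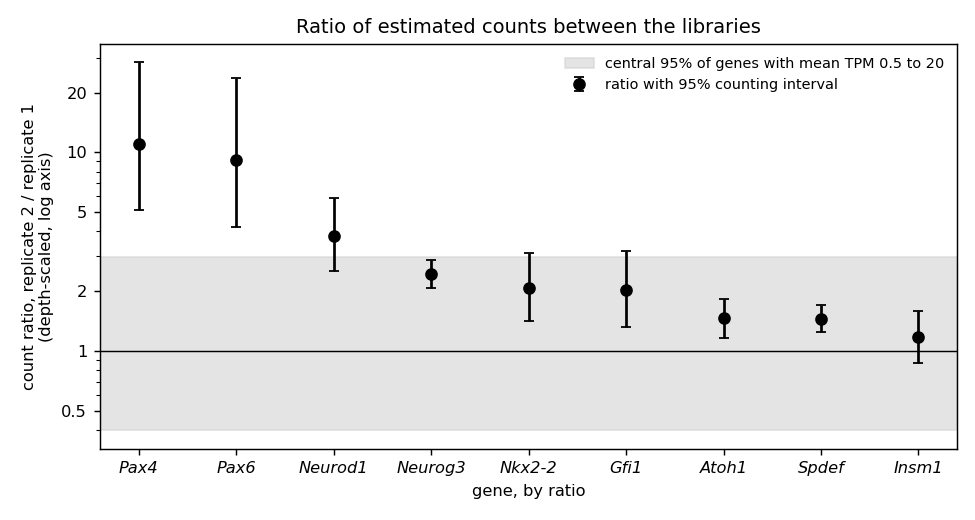
Ratio of estimated counts, replicate 2 over replicate 1 and scaled for depth (log axis), for each factor with its 95% counting interval. The grey band holds the central 95% of genes with mean TPM 0.5 to 20, from a ratio of 0.398 to 2.97; Pax4, Pax6 and Neurod1 lie above it and the other 6 inside it.

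Atoh1 (ENSMUSG00000073043.4, chromosome 6, 64729125 to 64731245, plus strand), the bHLH factor that commits progenitors to secretory fates, had 191 counts in replicate 2 and 133 in replicate 1. These gave 4.09 TPM in replicate 2, with a deposited interval of 3.47 to 4.60, and 2.88 TPM in replicate 1, with 2.35 to 3.32. The level was higher in replicate 2 and the intervals stood apart, by a narrow gap. The count ratio was 1.46, with an interval of 1.16 to 1.84, and 10.1% of genes with mean TPM 0.5 to 20 had a larger one. The log2 difference of 0.39 was under the size limit, so Atoh1 was not called.

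Spdef (ENSMUSG00000024215.9, chromosome 17, 27714352 to 27728955, minus strand), an ETS-family factor of goblet and Paneth cell maturation, had 386 counts in replicate 2 and 270 in replicate 1. Its level was 10.2 TPM in replicate 2 and 8.16 in replicate 1, with overlapping intervals of 9.09 to 11.6 and 6.96 to 9.50 TPM. The count ratio was 1.45, from 1.24 to 1.71. Part of this gene's signal came from a transcript annotated with a retained intron, Spdef-203, which took 12.4% of Spdef TPM in replicate 2 and 30.3% in replicate 1. The main coding transcript, Spdef-201, encoding 325 residues, took 86.4% and 64.1%. On Spdef-201 alone the counts were 358 in replicate 2 and 210 in replicate 1, a ratio of 1.74 with an interval of 1.46 to 2.07. Spdef-203 had 22.5 estimated counts in replicate 2 and 43.4 in replicate 1, a ratio of 0.527, from 0.297 to 0.890. These counting intervals leave out the uncertainty of dividing reads among transcripts. The deposited TPM intervals of Spdef-203, 0.235 to 2.70 in replicate 2 and 1.16 to 4.01 in replicate 1, overlapped.

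Gfi1 (ENSMUSG00000029275.13, chromosome 5, 107716657 to 107726036, minus strand) encodes a zinc finger repressor that acts below Atoh1 and keeps secretory precursors from the endocrine fate. It was the lowest factor in replicate 2, with 66 counts and 1.08 TPM, and had 33 counts and 0.54 TPM in replicate 1. The intervals of 0.944 to 1.63 and 0.469 to 1.06 TPM overlapped, and the count ratio was 2.04, from 1.32 to 3.19. Transcripts Gfi1-203 and Gfi1-201, which both encode 423 residues, took all of it, with Gfi1-203 at 73.7% in replicate 2 and 71.0% in replicate 1. Under the posterior mean estimate these shares were 34.8% and 25.6%, so the split between transcripts is uncertain. Gfi1 is also a gene of blood progenitors, and 12 leukocyte genes summed to 136 TPM in replicate 2 and 126 in replicate 1, led by Lyz2, Laptm5 and Cd52. Among markers of granulocyte precursors, the myeloperoxidase gene Mpo was at 1.31 TPM in replicate 2 and 1.33 in replicate 1, above Gfi1 in both. The elastase gene Elane was at 0.1 and 0.42 TPM, and Cebpe at 0.22 and 0.08. Whether leukocytes contributed to the Gfi1 level was not tested.

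Neurog3 (ENSMUSG00000044312.3, chromosome 10, 62133090 to 62134763, plus strand), the bHLH factor that starts endocrine differentiation in gut and pancreas, was the highest factor in replicate 2. It had 529 estimated counts and 15.6 TPM there, against 220 counts and 6.57 TPM in replicate 1. The deposited intervals of 13.7 to 16.3 TPM and 5.47 to 7.17 TPM stood well apart. The log2 difference was 1.14 and Neurog3 was called, with a count ratio of 2.45, from 2.09 to 2.88. Of genes with mean TPM 0.5 to 20, 3.16% had a larger ratio, and that class reaches far below the level of Neurog3. Scaled to the summed TPM of the epithelial genes, the log2 difference was 0.995 and just missed the limit of 1.

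The Neurog3 counts were the only ones among the 9 factors that were not whole numbers. The gene lies within the body of Fam241b, a protein-coding gene on the opposite strand (chromosome 10, 62107655 to 62143920). Fam241b had 177.75 estimated counts in replicate 2 and 149.01 in replicate 1, and the counts of both genes together were whole, 707 and 369. Its own level was 7.78 TPM in replicate 2 and 5.90 in replicate 1, with a count ratio of 1.21, from 0.972 to 1.52. Some reads were thus divided between the genes by the estimate, and how many depends on whether strand was used, which is not given in the sources used here.

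The windows of 250 bases upstream of the RefSeq starts of Neurog3, Neurod1, Nkx2-2 and Atoh1 are shown because these factors act one after another and bHLH proteins bind the E-box, CANNTG. They are from RefSeq on GRCm38.p6, the same assembly as mm10, and read 5′ to 3′ on the gene's strand: chr10:62132840-62133089 (plus), chr2:79456637-79456886 (minus), chr2:147186403-147186652 (minus) and chr6:64728875-64729124 (plus). Capitals mark each match to CANNTG, whose pattern is the same on both strands.
Neurog3: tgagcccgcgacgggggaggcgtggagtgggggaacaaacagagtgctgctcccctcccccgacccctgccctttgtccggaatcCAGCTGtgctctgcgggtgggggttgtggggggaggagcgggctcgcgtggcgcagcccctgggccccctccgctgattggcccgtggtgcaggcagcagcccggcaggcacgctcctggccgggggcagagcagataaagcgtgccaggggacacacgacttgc
Neurod1: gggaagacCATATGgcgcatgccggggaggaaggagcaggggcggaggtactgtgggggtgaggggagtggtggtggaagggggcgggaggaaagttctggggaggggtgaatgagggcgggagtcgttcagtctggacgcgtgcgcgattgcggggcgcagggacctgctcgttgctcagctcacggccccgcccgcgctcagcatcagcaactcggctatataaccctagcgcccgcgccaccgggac
Nkx2-2: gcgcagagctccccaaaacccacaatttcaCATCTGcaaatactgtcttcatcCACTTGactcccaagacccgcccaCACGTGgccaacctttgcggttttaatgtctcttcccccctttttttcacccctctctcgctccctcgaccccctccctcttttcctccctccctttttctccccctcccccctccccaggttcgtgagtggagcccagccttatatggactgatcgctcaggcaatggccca
Atoh1: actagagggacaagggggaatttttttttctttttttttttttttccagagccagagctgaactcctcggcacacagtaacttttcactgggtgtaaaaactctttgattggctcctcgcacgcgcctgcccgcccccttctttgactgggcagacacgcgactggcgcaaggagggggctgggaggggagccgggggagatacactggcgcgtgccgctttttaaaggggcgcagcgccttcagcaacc
Neurog3 and Neurod1 held 1 match each, starting 165 and 242 bases before the start, Nkx2-2 held 3, and the Atoh1 window held none. RefSeq windows were matched for 7 of the 9 factors, 9 windows in all, and 6 of them held a match. Of 32851 upstream windows of this length, 66.2% held at least 1, so a match is common at any gene. The N-box CACNAG, searched on both strands and known as a site of the Notch target Hes1, was found in 1 of the 9 windows, at 1 of the starts of Pax6, and in 36.7% of all windows; it overlapped no match to CANNTG.

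Neurod1 (ENSMUSG00000034701.9, chromosome 2, 79452521 to 79456751, minus strand), the bHLH factor switched on by Neurog3, had 112 counts and 1.81 TPM in replicate 2, against 30 counts and 0.49 TPM in replicate 1. The deposited intervals, 1.46 to 2.11 and 0.326 to 0.672 TPM, did not overlap. Its count ratio of 3.80, from 2.52 to 5.89, lay above that of Neurog3, and the intervals of the ratios overlapped. On the log2(TPM + 1) scale the difference was 0.92, short of the limit, and with 0.1 added in place of 1 it was 1.69 and Neurod1 was called. Adding 1 understates differences at these levels. The gene shares its locus with Cerkl on the same strand, which had 7.23 estimated counts in replicate 2 and 0 in replicate 1.

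Insm1 (ENSMUSG00000068154.5, chromosome 2, 146221921 to 146225020, plus strand), a zinc finger factor of endocrine and neuronal precursors, differed least. It had 99 counts and 1.40 TPM in replicate 2, and 86 counts and 1.23 TPM in replicate 1, with overlapping intervals of 1.12 to 1.66 and 0.958 to 1.47 TPM. Its ratio of 1.17 was the only one among the 9 whose counting interval, 0.869 to 1.58, included 1. Of genes with mean TPM 0.5 to 20, 23.5% had a larger ratio. Enteric neuron and crest genes, listed because Insm1 is also used in neuronal precursors, summed to 398 TPM in replicate 2 and 428 in replicate 1. All 12 of them were detected in both libraries and 0 were called, led by Uchl1, Tubb3 and Stmn2, with Uchl1 at 77.9 TPM in replicate 2 and 84.1 in replicate 1. Their part in the Insm1 level was not tested.

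Nkx2-2 (ENSMUSG00000027434.11, chromosome 2, 147177546 to 147194243, minus strand), a homeodomain factor needed for islet and enteroendocrine cell types, had 82 counts and 2.28 TPM in replicate 2 and 40 counts and 1.34 TPM in replicate 1. The deposited intervals of 1.84 to 3.46 and 1.01 to 2.51 TPM overlapped. The count ratio was 2.09, from 1.41 to 3.13. The coding transcript Nkx2-2-201, encoding 273 residues, carried 75.4 of the estimated counts in replicate 2 and 35.4 in replicate 1. It held only 69.7% and 56.4% of the gene's TPM, because Nkx2-2-202, a noncoding transcript of 340 bases, took 23.3% and 26.7% from 3 and 2 counts. Another noncoding transcript, Nkx2-2-204, took 11.5% in replicate 1 from 1 count, and none in replicate 2. The antisense gene Nkx2-2os had 0 counts in both libraries, and the antisense gene 6430503K07Rik had 3 in replicate 2 and 0 in replicate 1.

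Pax4 (ENSMUSG00000029706.11, chromosome 6, 28442334 to 28449353, minus strand) encodes a paired homeodomain factor of islet beta and delta cells and of some enteroendocrine cells. It had 76 counts and 2.63 TPM in replicate 2, against 7 counts and 0.24 TPM in replicate 1. The deposited intervals of 2.35 to 3.75 and 0.259 to 0.852 TPM were far apart, and that of replicate 1 began above the TPM itself, since intervals are centred on a posterior mean. In replicate 1 the TPM lay inside its interval for 96.8% of genes with mean TPM 0.5 to 20, and for 7 of the 9 factors, all but Pax4 and Pax6. Pax4 was called, with a log2 difference of 1.55 and the largest ratio of the 9 factors, 11.1, from 5.11 to 28.4. The width comes from the 7 counts of replicate 1, whose Poisson interval was 2.81 to 14.4 counts. Pax4-201, encoding 349 residues, held 70.3% of the TPM in replicate 2 and 84.0% in replicate 1. Pax4-202, encoding 336 residues, held 22.9% in replicate 2 and none in replicate 1, and Pax4-203, encoding 335, none in replicate 2 and 16.1% in replicate 1. Under the posterior mean estimate Pax4-201 held 42.3% in replicate 2 and 19.3% in replicate 1. With 7 counts in replicate 1, a difference in transcript use was not detectable.

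Pax6 (ENSMUSG00000027168.17, chromosome 2, 105668900 to 105697364, plus strand), the paired homeodomain factor of islet alpha cells and of several enteroendocrine types, had 63 counts in replicate 2 and 7 in replicate 1. Its TPM was 1.69 in replicate 2 and 0.15 in replicate 1, the lowest value of any factor. The count ratio was 9.16, from 4.19 to 23.7. Pax6 missed the filter with a mean of 0.92 TPM, and was called with a log2 difference of 1.23 when no filter was set, under which 0.422% of 24863 genes with any count were called higher. For this gene neither deposited interval held the TPM. That of replicate 2 ran from 2.12 to 3.88 TPM around a posterior mean of 2.97, and that of replicate 1 from 0.737 to 1.76 around 1.22. By posterior mean the log2 difference was 0.84, under the limit of 1, so Pax6 was not called by that estimate, although its mean of 2.10 TPM then passed the filter. Its level and its call thus depend on the estimate chosen.

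The transcripts of Pax6 could not be resolved at this depth. In replicate 2 the counts were spread over 9 of the 26, with Pax6-207 and Pax6-203, which both encode 422 residues, at 18.9% and 10.2% of TPM, and a coding fragment of 528 bases, Pax6-214, at 33.4% from 5.69 counts. The retained intron transcript Pax6-220 held 12.8% from 2.23 counts. In replicate 1 all 7 counts went to Pax6-216, a processed transcript with no annotated coding sequence. Under the posterior mean estimate no Pax6 transcript exceeded 18.6% in replicate 2 or 8.03% in replicate 1. Atoh1, Neurog3, Neurod1 and Insm1 have 1 transcript each in the tables, so their levels do not depend on such a split.

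**Figure D3:**
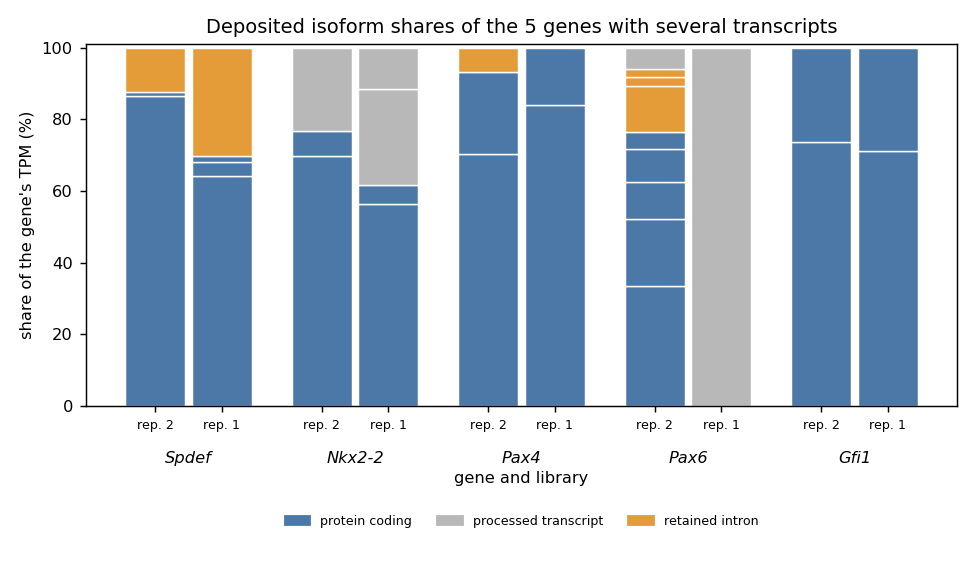
Deposited share of each annotated transcript in the TPM of its gene (%), for replicate 2 and replicate 1, coloured by transcript type, with white lines between transcripts. The retained intron share of Spdef is 12.4% in replicate 2 and 30.3% in replicate 1; the single grey bar of Pax6 in replicate 1 rests on 7 counts.

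The ratios divided by role only in part. Of the 5 factors that follow Neurog3, Neurod1, Pax6 and Pax4 had ratios above that of Neurog3, and Insm1 and Nkx2-2 below it. Insm1, at 1.17, had the smallest of all. Spdef was at 1.45, Atoh1 at 1.46, Gfi1 at 2.04, Nkx2-2 at 2.09, Neurog3 at 2.45, Neurod1 at 3.80, Pax6 at 9.16 and Pax4 at 11.1. On the log2(TPM + 1) scale, taking posterior mean TPM moved the difference of Pax4 to 1.39, against 1.55, and that of Pax6 to 0.84, against 1.23. The ratio intervals of Atoh1 and Spdef did not overlap those of Neurog3, Neurod1, Pax6 and Pax4, but overlapped those of Insm1, Nkx2-2 and Gfi1. Of the 9 factors, 8 had a counting interval above 1, where 15.0% of genes with mean TPM 0.5 to 20 did.

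Other transcription factors of endocrine differentiation were detected in both libraries for 14 of 20 genes, and 1 was called higher in replicate 2. That gene was Pdx1, the factor of pancreas and duodenum, at 2.61 TPM in replicate 2 and 0.32 in replicate 1, a count ratio of 8.50 with an interval of 5.84 to 12.8. The median log2 difference of the 15 genes at mean TPM 1 or more was 0.19. Foxa2, a factor of endoderm, was at 5.04 TPM in replicate 2 and 2.06 in replicate 1, and its difference of 0.98 was short of the limit. Rfx6, which acts beside Neurog3 in the endocrine path, was at 1.80 and 1.46 TPM with a ratio of 1.38, from 1.04 to 1.82. Isl1, a factor of endocrine and neuronal cells, was at 3.92 and 2.11 TPM. The islet factor Nkx6-1 had 30 counts in replicate 2 and 1 in replicate 1, under 1 TPM in both. The 3 highest members of the list, Sox4, Etv1 and Runx1t1, are widely used outside the endocrine lineage and had ratios of 1.09, 0.877 and 0.924.

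Enteroendocrine hormone and granule genes were detected in both libraries for 13 of 21 measured members, and 6 were called higher in replicate 2. The 6 were Pyy, Gcg, Chgb, Ghrl, Sst and Gast. The peptide YY gene Pyy was at 32.5 TPM in replicate 2 and 0.16 in replicate 1, where it had 1 count, a ratio of 353 with an interval of 63.0 to 13986. Gcg, which encodes glucagon and GLP-1, was at 17.5 and 0.45 TPM, and the ghrelin gene Ghrl at 12.7 and 1.21. The granule protein gene Chgb was at 11.9 and 3.34 TPM, while Chga was at 10.8 and 5.10 and fell just short of the call with a log2 difference of 0.96. Cpe, which encodes a prohormone-processing enzyme, was at 156 TPM in replicate 2 and 167 in replicate 1. The secretin gene Sct, at 153 TPM in replicate 2 and 102 in replicate 1, and the cholecystokinin gene Cck, at 5.52 and 5.14, were not called. Genes of this list that islet cells also express include Pyy, Gcg, Ghrl and Sst. The median log2 difference of the 17 members at mean TPM 1 or more was 0.44.

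Goblet cell products were detected in both libraries for 11 of 14 members, and 3 were called higher in replicate 2. Fcgbp, a mucus protein gene, was at 36.3 TPM in replicate 2 and 12.6 in replicate 1, with a ratio of 3.22, from 2.97 to 3.49. Spink4 was at 60.0 and 26.7 TPM and Tpsg1 at 4.97 and 1.61. The trefoil factor gene Tff3, the highest member, was at 334 TPM in replicate 2 and 249 in replicate 1, Muc13 at 82.3 and 80.9, and Guca2a at 47.2 and 40.0. The mucin gene Muc2 had 47 and 35 counts, and the interval of its ratio, 0.863 to 2.18, included 1. Among 12 members at mean TPM 1 or more the median log2 difference was 0.35. These lists, like the factors themselves, were chosen with earlier results of these libraries known.

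Other regulators of secretory cells were detected in both libraries for 10 of 11 genes. The 3 highest were Xbp1, a factor of the secretory stress response, at 158 TPM in replicate 2 and 132 in replicate 1, Elf3 at 132 and 126, and Hnf4a at 70.5 and 70.3. Only Bhlha15 was called, a bHLH factor of enzyme-secreting cells including the pancreatic acinus, at 3.03 TPM in replicate 2 and 0.15 in replicate 1. Foxa3, a factor of goblet cells and liver, was at 17.0 and 17.3 TPM.

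Notch components, which act upstream of Atoh1, were detected in both libraries for all 14 genes, and 0 were called in either direction. The target gene Hes1, whose product represses Atoh1, was at 52.6 TPM in replicate 2 and 48.0 in replicate 1. Hes6 was at 66.0 and 62.5 TPM, the shared nuclear effector Rbpj at 29.2 and 36.7, and the ligand gene Dll1 at 15.6 and 19.0. Their median log2 difference was 0.05. The epithelial identity genes likewise had 0 calls among 14, with a median of 0.12, and summed to 2901 TPM in replicate 2 and 2613 in replicate 1, a ratio of 1.11.

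**Figure D4:**
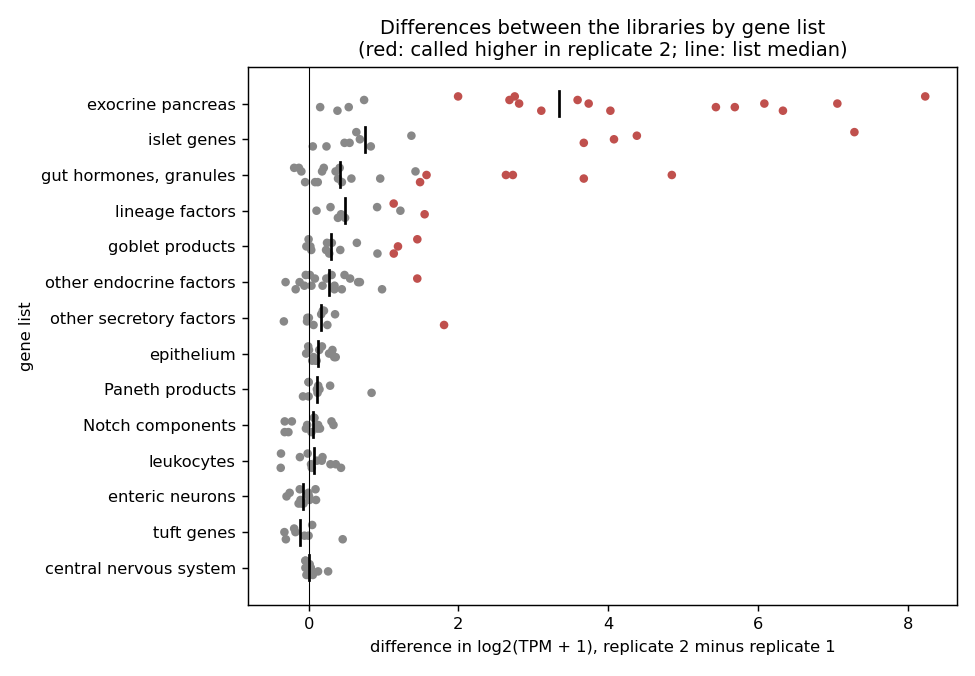
Difference in log2(TPM + 1), replicate 2 minus replicate 1, for each gene of the lists, with the list median as a line and genes called higher in red. Exocrine pancreas and islet genes reach furthest to the right; the lineage factors have a median of 0.49, and Notch, leukocyte and enteric neuron genes sit around 0.

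Exocrine pancreas genes had a median log2 difference of 3.35 between the libraries and islet genes 0.76, beside 0.49 for the 9 factors. Of 18 exocrine genes 14 were called higher in replicate 2, and 8 had 0 counts in replicate 1. Pnliprp1 was at 355 TPM in replicate 2 and 1.67 in replicate 1, and the colipase gene Clps at 287 and 16.6. Ctrb1, with 0 counts in replicate 1, was at 300.1 TPM. Other called exocrine genes included Amy2a5, Cel, Cpa1 and Try5. Ptf1a, the bHLH factor that defines acinar cells, had 190 counts in replicate 2 and 0 in replicate 1. Of 12 islet genes 4 were called higher, namely Ins2, Ins1, Iapp and Gcg, with Iapp at 26.7 TPM in replicate 2 and 0.64 in replicate 1. In replicate 1, where Ins1, Ins2, Ptf1a and Ctrb1 had 0 counts, Neurog3 was at 6.57 TPM, Spdef at 8.16, Atoh1 at 2.88, Nkx2-2 at 1.34 and Insm1 at 1.23. The part of pancreatic tissue in the higher levels of replicate 2 was not tested. Pax6, Neurod1 and Insm1 are also genes of brain and retina. A list of 14 genes of those tissues summed to 0.88 TPM in replicate 2 and 0.57 in replicate 1. None was at TPM 1, and the highest, Sox2, was at 0.43 and 0.31 TPM. Whether such tissue contributed to the levels of Pax6, Neurod1 and Insm1 was not tested.

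Among bHLH, Pax and Nkx2 genes, few relatives of the factors were expressed. Among 16 Atonal-family bHLH genes, Neurog3, Atoh1 and Atoh8 were detected in both libraries, and Neurod1 and Bhlha15 in replicate 2. Atoh8, a broadly expressed relative, was at 5.83 TPM in replicate 2 and 5.19 in replicate 1. The closest relatives of Neurog3, Neurog1 and Neurog2, had 1 and 2 counts in replicate 2 and 2 and 0 in replicate 1. Of 9 Pax genes, Pax4 and Pax6 reached TPM 1, in replicate 2. Pax8 came after them there, at 0.17 TPM, and was the highest Pax gene in replicate 1, at 0.36 TPM. Among 7 Nkx2 genes, Nkx2-3, a factor of gut mesenchyme, stood far above Nkx2-2, at 65.6 TPM in replicate 2 and 64.9 in replicate 1, and 4 others had 0 counts in both libraries. The paralog Gfi1b was at 0.05 TPM in replicate 2 and 0.2 in replicate 1, and Insm2 at 0.09 and 0.22. Among ETS-family relatives of Spdef, Elf3 stood far above it, at 132 TPM in replicate 2 and 126 in replicate 1, and Ehf was at 8.41 and 8.57. Of the 8 zinc finger and ETS genes listed, Elf3, Spdef, Ehf and Insm1 were detected in both libraries.

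**Figure D5:**
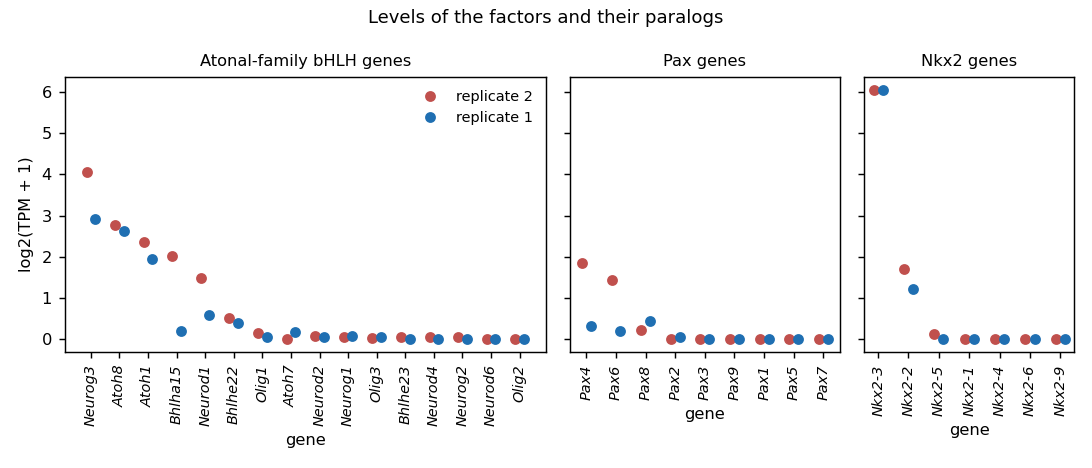
Level of each gene, as log2(TPM + 1), in replicate 2 and replicate 1 for 16 Atonal-family bHLH, 9 Pax and 7 Nkx2 genes, ordered by mean TPM. Most relatives lie at or near 0 in both libraries; Nkx2-3 is the highest, at 65.6 and 64.9 TPM.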

How the data were processed

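Total RNA longer than 200 nucleotides, 10 ng per library, was sequenced from 2 intestines, per the labels. Alignment was to mm10 with the GENCODE M4 genes, per the notes deposited with the files. For the quantification tool and the strand setting, the sources used here give nothing. Expected counts, TPM over all features including 96 spike-ins, and FPKM were deposited by the authors; FPKM was not used. The percent share of each transcript was deposited in the transcript tables. Interval bounds of TPM, taken here as scores, were deposited too, lie around a posterior mean, and some miss the TPM. Lengths were deposited as other values.

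Symbols, coordinates and transcript types came from GENCODE M21 on GRCm38, which matched 42462 of 43346 genes. Detection was TPM 1 in both libraries. Count ratios used counts rounded to whole numbers for their intervals (scipy 1.17.1). Over 19401 genes the chi-square divided by its degrees of freedom was 14.2, more than sampling noise gives, and both libraries were counted as samples. Donor, pup and dam numbers in the labels are the same, while collection days and the RNA of Xist and Y-linked genes differ, so the libraries are of different embryos. The SD measures the spread between these samples. Amplified reads are not independent molecules, so intervals cover counting error only.

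The members and 17 further gene lists were chosen with earlier results of these data known. Named were all members, the 3 highest of each list, called list members (at most 8) and transcripts at 10% or more; further genes were picked with values in view. Some genes under this rule are not reported here. The alternatives tried were detection thresholds, filters, a pseudocount of 0.1, posterior means, TMM (edgeR 4.0.16), DESeq2 1.42.0 size factors, and scaling to spike-ins or epithelial genes. The rules were also run on simulated counts that held sampling noise only. That is less than the spread between these libraries, so the simulation does not show how often the rules call genes here.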

Additional observations from a re-analysis of the deposited data

How the results depend on the processing

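No paired analysis was possible because both libraries belong to 1 group. All 9 log2 differences kept a positive sign with a pseudocount of 0.1, posterior mean TPM, and TMM, DESeq2, spike-in and epithelial scaling. The 2 calls, Neurog3 and Pax4, stood under TMM, DESeq2 size factors, spike-in scaling and posterior mean TPM. Scaling to epithelial genes left 1 call, Pax4, and a filter of mean TPM 5 left 1, Neurog3. Pax6 was added with no filter or a filter of 0.5, and Neurod1 with a pseudocount of 0.1, which made 3 calls each. The counting interval alone, chosen after seeing the data, called 8 factors higher, and 93 of 197 other list genes higher and 14 lower, against 28 higher and 0 lower by the main rule. Detected factors numbered 2 at TPM 5, 6 at TPM 0.5 or by posterior mean, 7 at 10 counts, and between 5 and 9 with 1 library left out. The share of all genes detected was taken only at TPM 1 in both libraries, 34.2%. Shares called were taken for the main rule, with no filter, and for the counting interval in genes with mean TPM 0.5 to 20. At the other settings the counts do not show how the factors compare with other genes. Spike-in and epithelial scaling shifted replicate 2 by -0.10 and -0.15 on the log2 scale, and TMM and DESeq2 by 0.05 and 0.04. Rescaling over protein-coding genes raised TPM without changing the order of factors within a library. The Pax6 mean was 2.10 TPM by posterior mean, against 0.92. Depth limits Pax4 and Pax6 most, with 7 counts each in replicate 1.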

Other observations

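Of the secretory cell types that follow Atoh1, the genes of 2 were not described above, and whether such cells were present was not tested. Paneth cell products were detected in both libraries for 5 of 10 genes and 0 were called, with Habp2 at 21.02 TPM in replicate 2 and 22.2 in replicate 1, Defa24 at 14.9 and 13.7, and Defa17 at 10.6 and 5.48. Of the 10 Paneth genes, 3 had 0 counts in both libraries. The defensin genes resemble each other in sequence, which makes the split of reads among them uncertain. Tuft cell genes were detected in both for 3 of 8, Ptgs1, Trpm5 and Dclk1, and 0 were called. The defining tuft cell factor Pou2f3 was at 0.71 TPM in replicate 2 and 1.11 in replicate 1, the opposite direction to the 9 lineage factors, with a count ratio of 0.678 and an interval of 0.443 to 1.03 that included 1.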
